A study of Mus musculus with 3 samples.

Results

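The 8 genes described here encode efflux pumps and enzymes that clear aldehydes, and they were chosen by name: the pumps Abcg2, Abcb1a, Abcb1b, Abcc1 and Abcc4, and the dehydrogenases Aldh1a1, Aldh2 and Adh5. They are 8 of 21755 protein-coding genes on chromosomes 1 to 19 and X, and all 8 were found. The study profiled bone marrow HSCs by DOGMA-seq, which reads open chromatin, RNA and antibody-derived tags from the same cells. The series used here holds 3 libraries, of which the ATAC library was used. The cells were wild-type LT-HSCs of female C57BL/6 mice aged 8 weeks, enriched for c-Kit and sorted as LSK CD48− CD150+ CD34−. The number of mice was not given in the sources used here. With 1 ATAC library in this series and no second condition within it, no value has a replicate and none was tested. Intervals are exact 95% intervals that cover counting error only.

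ABC transporters use ATP to move drugs, dyes and metabolites out of the cell. In bone marrow, dye efflux through such pumps defines the side population, in which HSCs are enriched. Aldehyde dehydrogenases oxidize aldehydes to acids, Adh5 clears formaldehyde through its glutathione adduct, and the Fanconi anaemia proteins repair the DNA crosslinks that aldehydes leave behind.

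Of 3757 barcodes called as cells, 3108 had more than 3000 fragments in peaks and were used. They held 37137164 fragments on chromosomes 1 to 19 and X, with a median of 11457 per cell. Fragment midpoints were counted in 500-bp bins over each gene body and 30 kb on either side. The genome mean was 7.25 fragments per bin, and a bin was called at 10 or more times that mean, from 73 fragments. By this rule 1.40% of all bins were called genome-wide. In the loci of the 8 genes, 55 of 2536 bins (2.17%) were called, and adjoining called bins formed 35 sites. The Aldh2 locus alone held 17 of the called bins, and without it 38 of 2360 bins (1.61%) were called. These 38 include the called bins at the start of Abcb4, a neighbor of Abcb1b. By locus, the share was under the genome-wide 1.40% at Abcg2 (1.17%), Abcb1a (1.01%) and Aldh1a1 (0.237%). It was over 1.40% at Abcb1b (2.33%), Abcc1 (2.01%), Abcc4 (2.29%), Aldh2 (9.66%) and Adh5 (2.76%). Of the 35 sites, 9 lay at starts of the 8 genes, 5 at starts of other genes, and 21 more than 1000 bp from any annotated start. Genome-wide, 22829 of 39961 called sites (57.1%) lay that far from a start, so the 21 of 35 sites are near the general share.

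Starts were read in windows of 500 bp on either side, with a genome mean of 14.5 fragments per window, and were open at 10 or more times that mean, from 146 fragments. Of all protein-coding genes, 59.5% had an open start, and 7 of the 8 genes did. Since the windows were equally long, their fragments can be set side by side. Adh5 held the most at its fullest start, with 1159 fragments (95% interval 1093 to 1228), and Abcg2, Abcc1, Abcc4, Aldh2 and Abcb1b followed with 829, 719, 617, 509 and 479. The intervals of Aldh2 (466 to 555) and Abcb1b (437 to 524) overlapped, and that of Abcc1 (667 to 774) met those of Abcg2 (774 to 887) and Abcc4 (569 to 668) at its ends. Abcb1a held 259 fragments and Aldh1a1 held 86, the lowest level and the only fullest start among the 8 that was not open. The median over all protein-coding genes was 299 fragments, so 6 of the 8 genes lay above it. The 8 genes have 34 separate annotated starts, merging those within 500 bp, and 8 of these (23.5%) were open. The share over the separate starts of all genes is not given here, so this count is a description only.

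**Figure D1:**
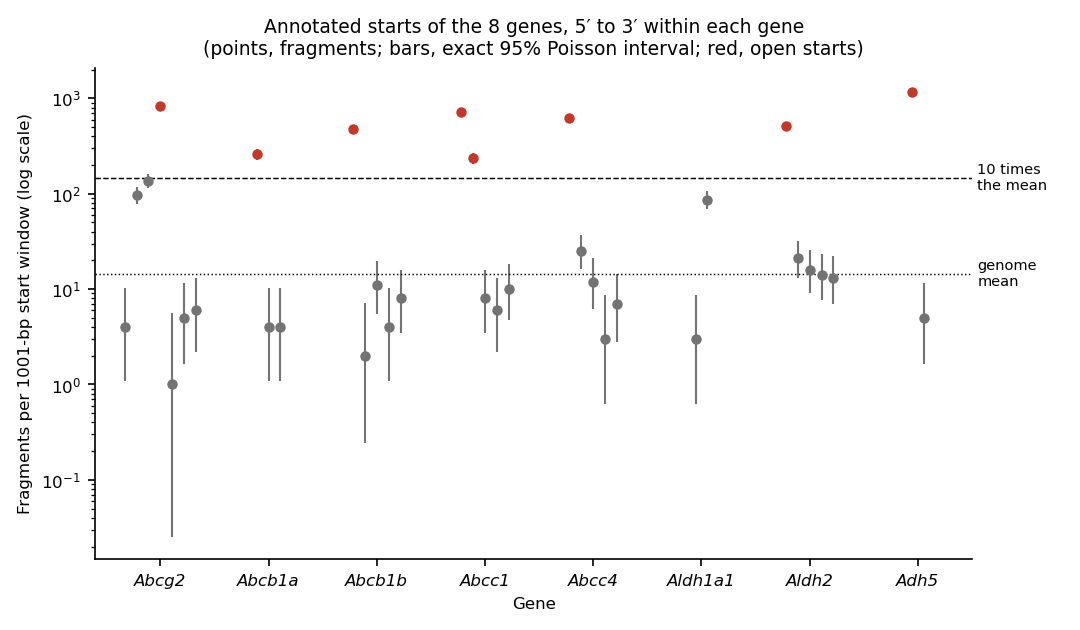
Fragments in 1001-bp windows at each annotated start of the 8 genes, on a log axis, with exact 95% Poisson intervals. Red points are open starts, at or above 10 times the genome mean (dashed line), and the dotted line is the genome mean. Abcg2 has 1 open start among 7, at 829 fragments, and Aldh1a1 has none among 2.

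Abcg2 encodes the pump that gives the side population its dye efflux. The gene, on the plus strand at chr6:58584523-58695676, has 7 separate annotated starts spread over 93098 bp. The farthest upstream start held 4 fragments (1.09 to 10.2), under the genome mean. At 12148 bp downstream, the start of Abcg2-201, the longest basic coding transcript, held 137 (115 to 162), just short of open. Its window overlaps that of Abcg2-210, which held 96, so fragments in the overlap count in both. At 56059 bp downstream, the start shared by 6 transcripts held 829 (774 to 887), or 57.1 times the genome mean. Open chromatin at Abcg2 was thus concentrated at 1 internal start, and the remaining 4 starts held 1 to 96 fragments. A fragment at the open start was seen in 655 of 3108 cells, or 21.1% (19.7 to 22.6%), against 4.15% (3.48 to 4.91%) at the start of Abcg2-201. Fragments shorter than nucleosomal DNA made up 66.0% of those at the open start, against 45.6% of all fragments and 32.8% at the start of Abcg2-201. Of the 50-base words in the farthest upstream window, 72.7% occur once in the genome, against 100% at the open start, so fragments from the former can be harder to place.

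The 3 RefSeq promoters of Abcg2 are printed as the 250 bases before each start on GRCm38, ordered from upstream to downstream, with matches in capitals, to set their base composition beside their fragments.
Abcg2, 4 fragments at the RefSeq start and 1 in these bases, chr6:58584283-58584532, plus strand: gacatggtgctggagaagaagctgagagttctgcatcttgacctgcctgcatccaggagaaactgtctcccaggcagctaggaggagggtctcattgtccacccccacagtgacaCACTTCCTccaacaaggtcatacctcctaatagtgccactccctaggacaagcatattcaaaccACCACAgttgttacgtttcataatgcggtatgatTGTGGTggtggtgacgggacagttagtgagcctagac
Abcg2, 136 fragments at the RefSeq start and 50 in these bases, chr6:58596422-58596671, plus strand: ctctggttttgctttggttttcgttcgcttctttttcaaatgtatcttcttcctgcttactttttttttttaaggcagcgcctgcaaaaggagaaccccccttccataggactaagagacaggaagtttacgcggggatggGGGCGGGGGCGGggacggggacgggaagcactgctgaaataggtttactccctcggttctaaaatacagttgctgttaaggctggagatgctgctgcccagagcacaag
Abcg2, 824 fragments at the RefSeq start and 344 in these bases, chr6:58640296-58640545, plus strand: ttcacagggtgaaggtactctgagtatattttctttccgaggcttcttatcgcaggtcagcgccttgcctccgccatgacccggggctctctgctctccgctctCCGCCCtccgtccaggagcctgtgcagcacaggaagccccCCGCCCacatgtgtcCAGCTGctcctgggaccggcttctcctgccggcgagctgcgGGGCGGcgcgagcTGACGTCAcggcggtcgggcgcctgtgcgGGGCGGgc
The open promoter was 67.6% G or C with 23 CG pairs, and the upstream ones were 51.2% with 3 and 50.0% with 10. Over 32619 promoters the medians were 52.4% and 6 CG pairs. Capitals mark, on either strand, GGGCGG (bound by SP and KLF factors; in 33.0% of all promoters), CAGCTG (E-box; 13.1%), TGACGTCA (cyclic AMP response element; 1.56%), TGTGGT (RUNX; 13.9%), and CCGGAAGT or AGGAAGTG (ETS; 5.98%). The open promoter held 4 matches to GGGCGG, 1 to CAGCTG and 1 to TGACGTCA. The middle promoter, just short of open, also held 2 to GGGCGG, and the farthest upstream promoter held 2 to TGTGGT and 1 to AGGAAGTG. A match is a run of letters and does not show binding.

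Beyond these starts, Abcg2 had 1 further called site, chr6:58650001-58650500, with 153 fragments (130 to 179). It lies in intron 1 of Abcg2-201 and touches an exon of Abcg2-213. The bin chr6:58596001-58596500, between the starts of Abcg2-210 and Abcg2-201, was called with 89 fragments (71.5 to 110). None of the Abcg2 sites lay in the flanks.

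Abcb1a and Abcb1b encode the paired rodent forms of P-glycoprotein, a pump for hydrophobic drugs and dyes, and lie in tandem on the plus strand of chromosome 5. At the annotated starts, Abcb1b held 479 fragments (437 to 524) and Abcb1a 259 (228 to 293), with a fragment in 12.9% (11.7 to 14.1%) and 7.46% (6.56 to 8.45%) of cells. In intron 4 of Abcb1a (chr5:8660077-8748575), a single 500-bp bin held 379 fragments (342 to 419), while the fullest bin at its start held 200. This site ranked at percentile 90.2 of the 22829 called sites genome-wide that lie over 1000 bp from any start. Intron 4 of Abcb1b (chr5:8798147-8866315) also held a site, chr5:8807501-8808000, 9533 bp into the gene, with 107 fragments (87.7 to 129). Outside called bins, the locus of Abcb1b with its flanks held 7.86 fragments per kb and that of Abcb1a 5.06, with 18.3% and 35.2% of all bins at 0. In these loci 91.7% and 75.0% of 50-base words were unique, and the part of this in the rates was not tested.

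RefSeq places another Abcb1a start 92986 bp upstream, outside the 30-kb flank, and it held 5 fragments (1.62 to 11.7); this position was looked at after the reference was seen. The start of Abcb1b is shared with the antisense gene Gm5106, whose signal cannot be told apart from it. Among the flanks of the pair, the called site was the start of Abcb4, a phospholipid transporter, at chr5:8893001-8894500 with 1119 fragments (1054 to 1187). Sequence repeated elsewhere in the genome bears on some windows, and where the copies lie was not tested. At 1 internal start of each gene only 36.6% of 50-base words are unique, so those 2 windows, each with 4 fragments, are uncertain. So are a pair of other internal Abcb1b starts, with 57.5% and 72.5% unique and 2 and 11 fragments. At the open starts 98.7% (Abcb1a) and 97.1% (Abcb1b) were unique, and at the Abcb1a intron site 100%.

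Abcc1 encodes a pump for glutathione conjugates and leukotriene C4. The gene (chr16:14361558-14475737, plus strand) had 2 open starts among 5. Its main start, shared by 7 transcripts, held 719 fragments (667 to 774), and a start used by a single transcript, 4204 bp downstream, held 235 (206 to 267), with a fragment in 18.7% and 6.47% of cells. The other 3 starts held 6 to 10. Upstream in intergenic sequence, called sites lay 10648 and 8778 bp before the start, at chr16:14350501-14351000 with 157 fragments and chr16:14352501-14353000 with 132. Inside the gene, chr16:14439001-14439500 in intron 14 held 219 fragments (191 to 250), and chr16:14374501-14375000 in intron 1 held 97. Both upstream sites contained TGACTCA, the AP-1 letters, which 9.30% of the 22829 sites hold. In each, the AP-1 match lay inside a match to TGACNNNGC, the antioxidant response element core, which 15.5% of them hold.

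Abcc4 exports cyclic nucleotides, prostaglandins and nucleotide analogs. In the longest of the 8 genes (chr14:118482692-118706219, minus strand, 223528 bp), open chromatin was spread over 8 sites. The start held 617 fragments (569 to 668), with a fragment in 16.2% of cells, and the other 4 annotated starts held 3 to 25. At 3701 bp upstream, the intergenic site chr14:118709501-118710500 held 560 fragments (515 to 608) in 1000 bp, and the called bins at the start itself held 678 (628 to 731) in 1500 bp. By its fullest bin it ranked at percentile 92.7 of the sites away from starts. Sub-nucleosomal fragments made up 61.6% of those at the upstream site and 41.3% of those at the start site. A fragment was seen in 15.3% of cells at the upstream site and 17.3% at the start site, and with sub-nucleosomal fragments alone the order turned, to 10.2% and 8.33%.

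The remaining 6 Abcc4 sites were all within introns. The fullest were chr14:118674501-118675500 in intron 1 with 332 fragments, chr14:118635501-118636000 in intron 4 with 290, and chr14:118551501-118552500 in intron 20 with 244, and the weakest, in introns 1 and 9, held 107 and 83. A site in intron 19, chr14:118591501-118592000, held 213 fragments and lay 472 bp from the annotated start of Mir6391, a microRNA on the same strand. Called bins at its own starts held 12.6% of all fragments of the Abcc4 locus. Over the other 7 loci this share ran from 0% at Aldh1a1 and 5.46% at Aldh2 to 60.4% at Adh5. The shares are of whole windows, which ran from 145 bins at Adh5 to 568 at Abcc4 and can hold starts of other genes. In the Aldh2 window, 2229 of 9063 fragments lay at the start region of Mapkapk5, Adam1a and Gm42878. The shares are therefore not like for like.

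The upstream site is printed as the fullest Abcc4 site away from its starts.
Abcc4 upstream, 560 fragments in the whole site and 400 in these bases, chr14:118709771-118710070, minus strand: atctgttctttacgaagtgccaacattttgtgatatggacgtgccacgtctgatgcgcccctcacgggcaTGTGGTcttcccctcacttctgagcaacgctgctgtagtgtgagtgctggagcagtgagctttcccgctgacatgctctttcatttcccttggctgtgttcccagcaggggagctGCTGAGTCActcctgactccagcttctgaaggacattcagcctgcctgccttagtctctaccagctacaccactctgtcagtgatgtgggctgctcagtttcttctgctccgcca
Capitals mark TGTGGT and a TGACTCA match inside an antioxidant match, the same overlap as at both upstream Abcc1 sites.

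**Figure D2:**
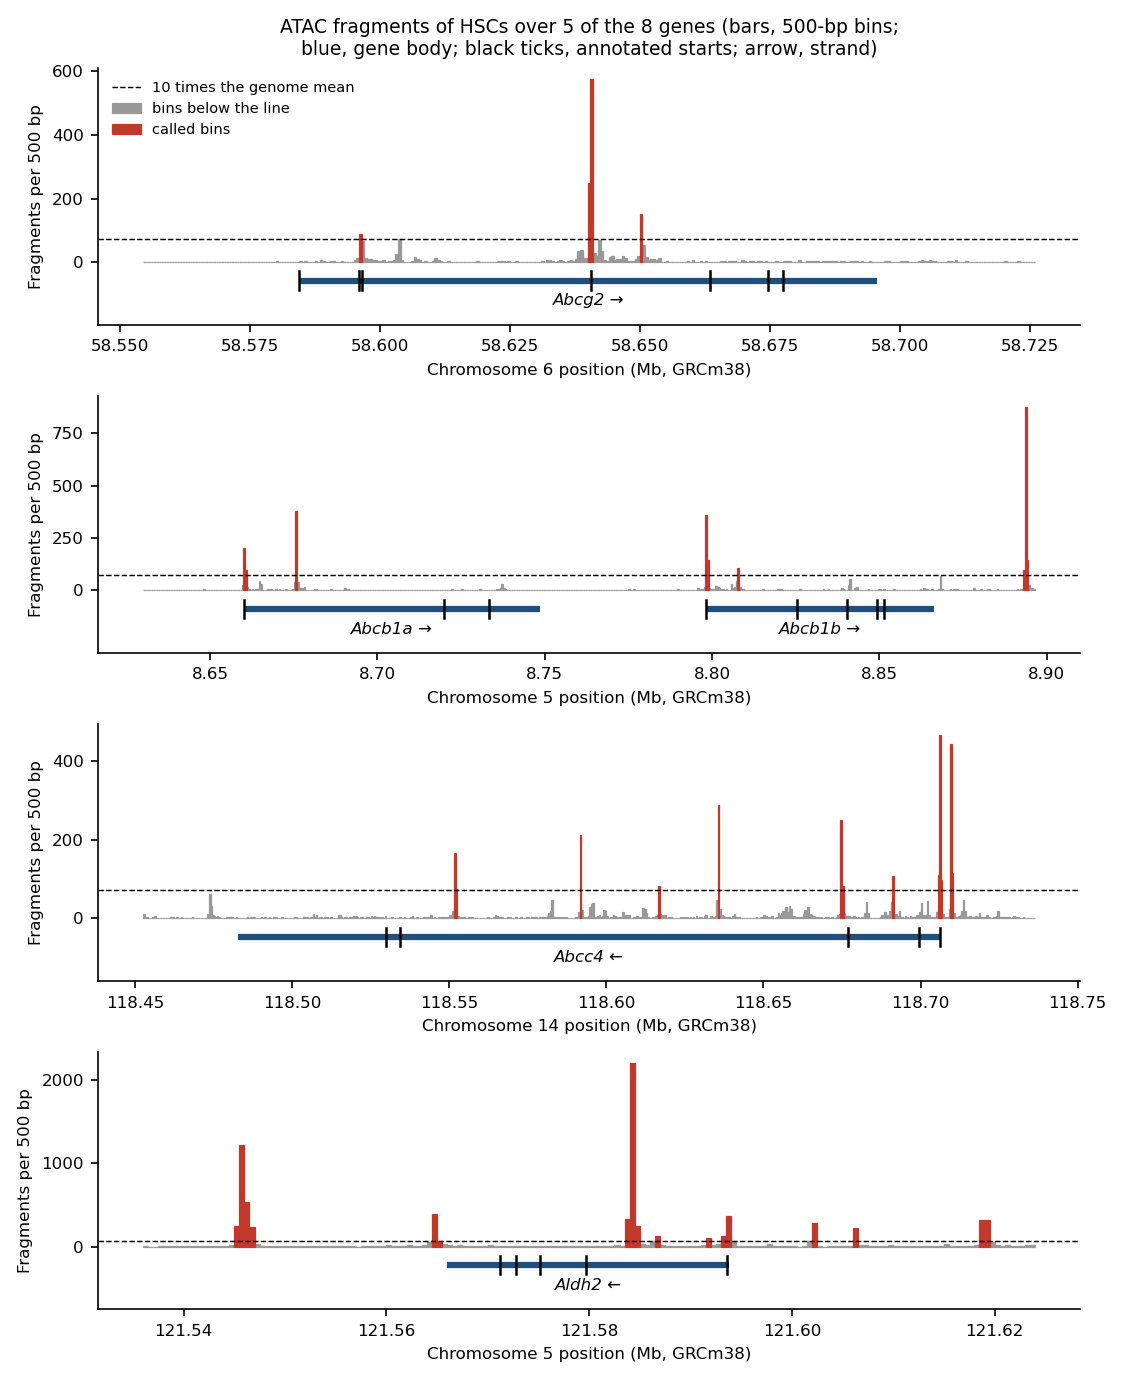
Fragments per 500-bp bin over Abcg2, the Abcb1a and Abcb1b pair, Abcc4 and Aldh2 with 30 kb on either side, against position on GRCm38. Red bars are called bins, the dashed line is 10 times the genome mean, and blue bars with black ticks are gene bodies and annotated starts. The fullest bin of Abcg2 lies at an internal start (577 fragments) and that of Aldh2 in intron 1 (2204 fragments).

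Aldh2, the mitochondrial enzyme that oxidizes acetaldehyde, had the most open locus. Its window held 103 fragments per kb, against a genome mean of 14.5, and outside the called bins it still held 21.8. The start (chr5:121566027-121593824, minus strand) held 509 fragments (466 to 555), with a fragment in 13.1% (11.9 to 14.3%) of cells, and its other 4 annotated starts held 13 to 21. Gm42879, on the opposite strand, has its start in the same called bins, and the signal of both cannot be told apart. In intron 1, 9484 bp into the gene, the site chr5:121583501-121585000 held 2776 fragments (2674 to 2881), or 30.6% of the locus. Its fullest bin held 2204 fragments, 304 times the genome mean, against 372 in the fullest bin at the start. Only 27 of the 22829 sites away from starts had a fuller bin. A fragment at this site was seen in 1633 of 3108 cells, or 52.5% (50.8 to 54.3%), the highest share of the 35 sites. Of those cells, 459 had 2 fragments there and 282 had 3 or more.

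Intron 1 of Aldh2 held 2 weaker sites, with 133 and 100 fragments. Past the 3′ end of Aldh2, the intergenic site chr5:121564501-121565500 held 460 fragments (419 to 504). The flanks also held starts of other genes. The shared start region of Mapkapk5, Adam1a and Gm42878 held 2229 fragments, the start of Acad12, an acyl-CoA dehydrogenase family gene, held 629, and a site near a minor Acad12 start held 221. An Acad12 intron site, chr5:121602001-121602500, held 286 and lay 8286 bp upstream of Aldh2.

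The intron 1 site is printed as the fullest of all 35.
Aldh2 intron 1, 2776 fragments in the whole site and 1680 in these bases, chr5:121584191-121584490, minus strand: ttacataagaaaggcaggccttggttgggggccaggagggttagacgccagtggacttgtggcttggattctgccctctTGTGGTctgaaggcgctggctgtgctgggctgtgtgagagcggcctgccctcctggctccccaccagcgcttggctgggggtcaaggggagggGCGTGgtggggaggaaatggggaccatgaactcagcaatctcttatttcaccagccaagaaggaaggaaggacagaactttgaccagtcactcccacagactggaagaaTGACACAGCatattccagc
Capitals mark 1 match each to TGTGGT (30.2% of the 22829 sites), GCGTG (the core read by the aryl hydrocarbon receptor and hypoxia factors; 21.4%) and TGACNNNGC (15.5%). Sub-nucleosomal fragments made up 67.3% of those at the site.

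Aldh1a1 encodes a cytosolic retinaldehyde dehydrogenase, an enzyme whose activity the dye-based ALDH assays of stem cells are meant to read. It had the least open of the 8 loci (chr19:20492715-20643465, plus strand), with 3.94 fragments per kb and 44.8% of bins at 0. The upstream starts, shared by 5 transcripts, held 3 fragments (0.619 to 8.77). The start of Aldh1a1-201, 109246 bp downstream, held 86 (68.8 to 106), 5.92 times the genome mean, with a fragment in 2.51% (1.99 to 3.12%) of cells. Its single called site, chr19:20614001-20614500, lay in intron 5 of Aldh1a1-206, with 107 fragments (87.7 to 129) in 3.12% (2.54 to 3.79%) of cells. Among the 22829 sites away from starts, whose median fullest bin held 138 fragments, it ranked at percentile 32.5.

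The promoter of Aldh1a1-201 and the intron site are printed as the fullest start and the only called site of the locus.
Aldh1a1 promoter, 86 fragments at the RefSeq start and 33 in these bases, chr19:20601718-20601967, plus strand: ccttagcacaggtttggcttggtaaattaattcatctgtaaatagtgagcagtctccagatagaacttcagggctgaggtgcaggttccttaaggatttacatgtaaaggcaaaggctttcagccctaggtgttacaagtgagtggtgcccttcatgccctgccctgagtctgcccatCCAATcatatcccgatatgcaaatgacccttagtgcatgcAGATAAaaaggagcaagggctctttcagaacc
Aldh1a1 intron 5, 107 fragments in the called bin and 105 in these bases, which run past its end, chr19:20614261-20614560, plus strand: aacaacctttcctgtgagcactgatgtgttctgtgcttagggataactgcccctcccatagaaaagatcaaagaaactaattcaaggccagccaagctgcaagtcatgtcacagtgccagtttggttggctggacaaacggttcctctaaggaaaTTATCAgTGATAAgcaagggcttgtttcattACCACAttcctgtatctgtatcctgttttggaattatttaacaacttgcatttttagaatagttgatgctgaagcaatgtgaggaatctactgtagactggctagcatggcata
Capitals mark the letters read by GATA factors (AGATAA, and likewise TGATAA), found in 16.6% of promoters and 23.6% of sites away from starts, the CCAAT box (34.0% and 28.8%), and TGTGGT. The promoter held 1 match for GATA factors and 1 CCAAT box, with 1 CG pair in 250 bases, against a median of 6 over all promoters. The intron site held 2 matches for GATA factors and 1 for RUNX.

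Adh5, the class III alcohol dehydrogenase, is the shortest of the 8 genes (chr3:138443093-138455499, plus strand) and had the fullest start. Its 1159 fragments came from 855 cells, or 27.5% (25.9 to 29.1%), and ranked at percentile 77.4 of protein-coding genes. Called bins at the start held 60.4% of the fragments of the locus, and no other site was called inside the gene. The internal start of Adh5 held 5 fragments, and a RefSeq start 5893 bp upstream held 10, a position looked at after the reference was seen. In the flanks, weak sites lay in introns of Adh4 (74 fragments) and Metap1 (79 fragments), both near the limit of 73.
Adh5 promoter, 1159 fragments at the start and 618 in these bases, shown as the fullest start, chr3:138442843-138443092, plus strand: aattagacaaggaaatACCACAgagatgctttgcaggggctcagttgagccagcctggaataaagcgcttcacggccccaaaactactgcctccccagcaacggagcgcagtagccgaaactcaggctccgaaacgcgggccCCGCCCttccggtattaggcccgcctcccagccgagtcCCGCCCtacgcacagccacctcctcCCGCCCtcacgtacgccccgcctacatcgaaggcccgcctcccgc
Its capitals mark 3 matches to GGGCGG and 1 to TGTGGT, and it was 63.6% G or C.

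Over the 21 sites away from starts, TGTGGT was found in 11 (52.4%, against 30.2% of the 22829) and the GATA letters in 6 (28.6%, against 23.6%). The antioxidant letters were found in 5 (23.8%, against 15.5%), those of AP-1 in 3 (14.3%, against 9.30%), CCAAT in 6 (28.6%, against 28.8%) and those of ETS factors in 2 (9.52%, against 9.14%). Below the genome-wide share lay GCGTG in 2 (9.52%, against 21.4%), CAGCTG in 2 (9.52%, against 20.2%), GGGCGG in 0 (against 13.2%) and TGACGTCA in 0 (against 0.692%). These counts are a description of few sites.

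Of the 3108 cells, 922 (29.7%) had no fragment at the open start of any of the 7 genes. A single gene was seen in 1170 cells, and all 7 in 1 cell. With a median of 11457 fragments per cell, a cell without a fragment cannot be read as closed. Barcodes not called as cells, 289882 of them with 3525361 fragments, showed the same sites at a lower rate. Per 1000000 fragments, the Aldh2 intron site held 74.8 in cells and 38.6 in these barcodes, and the open Abcg2 start 22.3 and 12.5. At 2 weak sites, chr5:8807501-8808000 in Abcb1b and chr5:121586501-121587000 in Aldh2, the rate in cells was not higher (2.88 against 3.12, and 3.58 against 3.69).

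The wider families set these genes in place. Of 50 genes listed under the ABC transporter family, 29 (58.0%) had an open start, close to the 59.5% of all protein-coding genes. Their median was 311 fragments. The 50 include Abce1, Abcf1, Abcf2 and Abcf3, all open, and the share without them is not given here. Among the fullest starts were those of Abcb9 (2688) and Abce1 (2034), a ribosome recycling factor. Below the genome mean lay 9, among them Abca15 (1), Abca9 (2), Abca16 (2), Abcb11 (4), the bile salt export pump, and Abca12 (5).

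Of 21 aldehyde dehydrogenase genes, 15 (71.4%) had an open start, with a median of 383 fragments. Aldh6a1 (4064), Aldh16a1 (2537) and Aldh3a2 (1964) were the fullest, and Aldh3b3 (10) was the only one below the genome mean. Aldh1a7, a close relative of Aldh1a1, held 17. Among 6 alcohol dehydrogenases, Adh5 was the only one with an open start (16.7%). Adh1 held 20 fragments, Adh7 6, Adh4 and Adh6b 2 each, and Adh6a 0 (up to 3.69).

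All 19 Fanconi anaemia genes had an open start, from Fancg (187) to Fancc (2867), with a median of 1289 and with Brip1 (2047) and Fancf (1834) next below Fancc. Of 14 regulators of such genes, 12 (85.7%) were open. Nfe2l2, the antioxidant response factor, held 2672 fragments, Hif1a 1980 and Arnt 1369. The xenobiotic receptors Nr1i2 (81) and Nr1i3 (13) were the 2 that were not open.

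The sorted label was set against marker starts, beside the 59.5% of all protein-coding genes that had an open start. Of 7 HSC genes, 5 were open, led by Hlf (1700), Kit (1030) and Mecom (769), whereas Slamf1 (101) and Ly6a (32) were not, although their proteins define the gate. T-cell, erythroid and granulocyte markers had 0 open of 3 each, summing to 23, 196 and 90 fragments. Cd4 (11) was the fullest T-cell marker and Mpo (47) the fullest granulocyte marker. Among B-cell markers 1 of 3 was open (Ebf1, 216; sum 282) and among stromal and endothelial ones 2 of 3 (Col1a1, 396, and Cxcl12, 152; sum 581). All 3 megakaryocyte markers were open, summing to 3275 fragments with Itga2b (1962) the fullest. Of the 2 genes whose proteins the sorted cells lack on their surface, 1 was open (Cd34, 217, or 14.9 times the genome mean), and Cd48 held 48 (sum 265). No marker was at 0, and whether other cells contributed to the 8 loci was not tested.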

How the data were processed

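The authors mapped the reads with Cell Ranger ARC 2.0.2 to mm10 (GRCm38) and deposited unique fragments and counts of fragments per barcode; the values are not normalized. The setting for the transposase offset was not given in the sources used here. RNA and tag matrices were not used here. Cells were barcodes called by the authors with more than 3000 fragments in peaks, and doublets were not removed. The paper also filtered cells on the share of reads in peaks, blacklisted regions, nucleosome signal, enrichment at transcription starts and mitochondrial RNA. Those filters were not applied to the cells used here, and only the share in peaks was tried as an alternative. Midpoints were counted in 500-bp bins and start windows of GENCODE vM21, and both were called at 10 times the mean of gap-free bins. Python 3.11.15, numpy 2.4.6 and scipy 1.17.1 were used. The counting in bins and windows, the call rule and the joining of bins were tested on simulated data, and the other steps were not. Named were all 8 genes, their starts, sites in the genes, the 3 fullest sites per locus, neighbors with a site, and per list the 3 fullest genes and up to 5 below the mean; Aldh1a7, Fancg and Nr1i2 were named after their values were seen. Members and lists were chosen with earlier results of these data known. RefSeq promoters (GRCm38.p6) were matched for 6 of 8 genes, and the set of promoters used here held none for Abcc1 and Aldh2. Some genes and sequences that the naming rule covers are not reported here.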

Additional observations from a re-analysis of the deposited data

How the results depend on the processing

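With 1 library, counting error is the only error that could be given, and shares of cells rise with depth. Under 11 alternatives the called bins (55) moved beyond 1.5 times with calls from 5 times the mean (93) and 20 times (34) and with bins of 250 bp (106) and 1000 bp (33), which follows from the threshold or the bin length. In the same order, the share of all bins called genome-wide was 2.36%, 0.772%, 1.31% and 1.54%, against 1.40%. The called sites (35) moved with calls from 5 times the mean (55) and otherwise ranged from 24 to 41. The genes with an open start were 7 of 8 in 8 of 10 alternatives, 8 with calls from 5 times the mean, when Aldh1a1 joined, and 6 from 20 times, when Abcb1a was lost. The share of all protein-coding genes moved alongside, from 59.5% to 65.0% and 50.5%. Of 110 listed family and pathway genes, 76 had an open start, and 66 (20 times) to 83 (5 times) did under the alternatives. Percentiles of fullest starts stayed within counting error in 53 of 64 cases. Shares of cells with a fragment did so in 112 of 175. Of these 112, 35 came from asking for over 15% of fragments in peaks. That setting gave the main value for every result, so it tested nothing. With sub-nucleosomal fragments alone all 35 shares fell, most of them by over 1.5 times. Counting only part of the fragments cannot raise such a share, so only the size of each fall is informative. The falls ran from the Aldh2 intron site (52.5% to 40.9%) and the Abcg2 start site (20.9% to 14.8%) through the Abcc4 start site (17.3% to 8.33%) and that of Abcb1a (8.46% to 3.19%) to the Abcg2 bin chr6:58596001-58596500 (2.61% to 0.644%). With all 3757 called cells the first 2 were 45.4% and 18.0%.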
